A study of Mus musculus with 6 samples.

Results

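The megakaryocyte and erythroid transcription factors described here were Klf1, Fli1, Runx1, Nfe2, Gfi1b, Tal1, Lmo2, Ldb1, Lyl1 and Etv6. They were represented by every probe set that the platform annotation assigns to 1 of these 10 genes alone, which gave 17 of the 45101 probe sets on the array. Runx1 had 6 of them, Fli1 and Etv6 had 2 each, and the other genes had 1 each. No probe set named a member together with another gene.

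The arrays held RNA of megakaryocytes, the polyploid cells that shed platelets, grown from mouse fetal liver cells in medium with thrombopoietin and enriched for mature cells on a bovine serum albumin gradient. FOG1 is the zinc finger cofactor of GATA factors that Zfpm1 encodes. The FOG1 ki/ki group held 3 arrays of cultures that the labels name FOG1-/- ki/ki. The control group held 3 arrays, replicates 1 and 2 from FOG1+/- cultures and replicate 3 from a FOG1+/+ culture. Among the controls, FOG1+/+ genotype and replicate number 3 therefore cannot be told apart. All 6 cultures came from mice of a mixed C57BL/6xSv129 background, and no treatment beyond the shared culture medium is labelled. The labels do not say what the knocked-in allele changes, nor whether a culture came from 1 fetus or from several. They call the arrays biological replicates, but they do not say that the cultures were separate, so the p-values measure the spread between these samples.

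Megakaryocytes and red cells arise from a shared progenitor that already carries most of these factors. GATA1 or GATA2, bound to DNA with TAL1 or its relative LYL1, is linked through the adaptors LMO2 and LDB1 into one complex, and FOG1 joins through the GATA factor. FLI1, RUNX1 and NF-E2 then drive platelet genes, KLF1 drives globin and other red cell genes, and KLF1 and FLI1 oppose each other at the branch.

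None of the 10 genes passed the test between FOG1 ki/ki and control, although Klf1 stood well above the rest. With limma on log2(signal + 16) over 11261 genes, 0 of 10 members had a Benjamini-Hochberg adjusted p under 0.05, where 0.151% of all genes did. The background was 0.0977% for higher and 0.0533% for lower. At an unadjusted p under 0.05 there were 2 of 10, against a background of 6.69%. Both were higher in FOG1 ki/ki, Klf1 and Lmo2 (background 3.0% higher and 3.69% lower). A limma fit with the replicate number as a block also called 0 of 10, against 0.835% of all genes (0.417% higher and 0.417% lower). At an unadjusted p under 0.05 that blocked fit had 5 of 10, with Klf1, Lmo2, Lyl1 and Runx1 higher and Nfe2 lower, against a background of 18.4% (7.99% higher and 10.5% lower). A limma fit over all 45037 probe sets that are not controls called 0 of the 17 probe sets (background 0.00222%, and 0.0% with the block). At an unadjusted p under 0.05 it had 2 of 17 (background 5.06%), and 6 of 17 with the block (background 9.87%). The median log2 difference over the 10 members was 0.03 (5 above, 5 below control), and over all genes tested it was also 0.03.

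Klf1 encodes the Krüppel-like factor of red cell precursors. Its probe set 1418600_at read 101, 162 and 78.7 in FOG1 ki/ki replicates 1, 2 and 3, against 43.7, 20.1 and 3.04 in control replicates 1, 2 and 3. The groups did not overlap, and every FOG1 ki/ki array lay above every control array. Replicate 3 read lowest in both groups. Its control is the only FOG1+/+ array, so genotype and replicate number cannot be told apart there. Mean signal was 114 ± 43.4 in FOG1 ki/ki and 22.3 ± 20.4 in control (SD, n = 3 each). The log2 difference was 1.86 (SE 0.46, 95% interval 0.79 to 2.93), the only one of the 10 over 1 in size, which 4.91% of all genes were. Its limma adjusted p was 0.302, and 0.0667 with the replicate block. Within equal replicate numbers the log2 differences were 0.97, 2.31 and 2.31, and the signals were 2.31, 8.08 and 25.9 times the control reading. The controls read close to background, and the size moved with the pseudocount. The log2 difference was 2.81 with a pseudocount of 1 and 1.04 with one of 64. Without control replicate 3 it was 1.43. Klf1 passed in a blocked fit that left out the pair numbered 1, an alternative chosen after seeing the data (log2 difference 2.31, limma adjusted p = 0.0197). That pair had the smallest Klf1 difference, and over all genes that fit called 84 higher and 123 lower. Klf1 did not pass in the blocked fits without the pair numbered 2 or 3 (limma adjusted p = 0.114 and 0.0511).

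**Figure D1:**
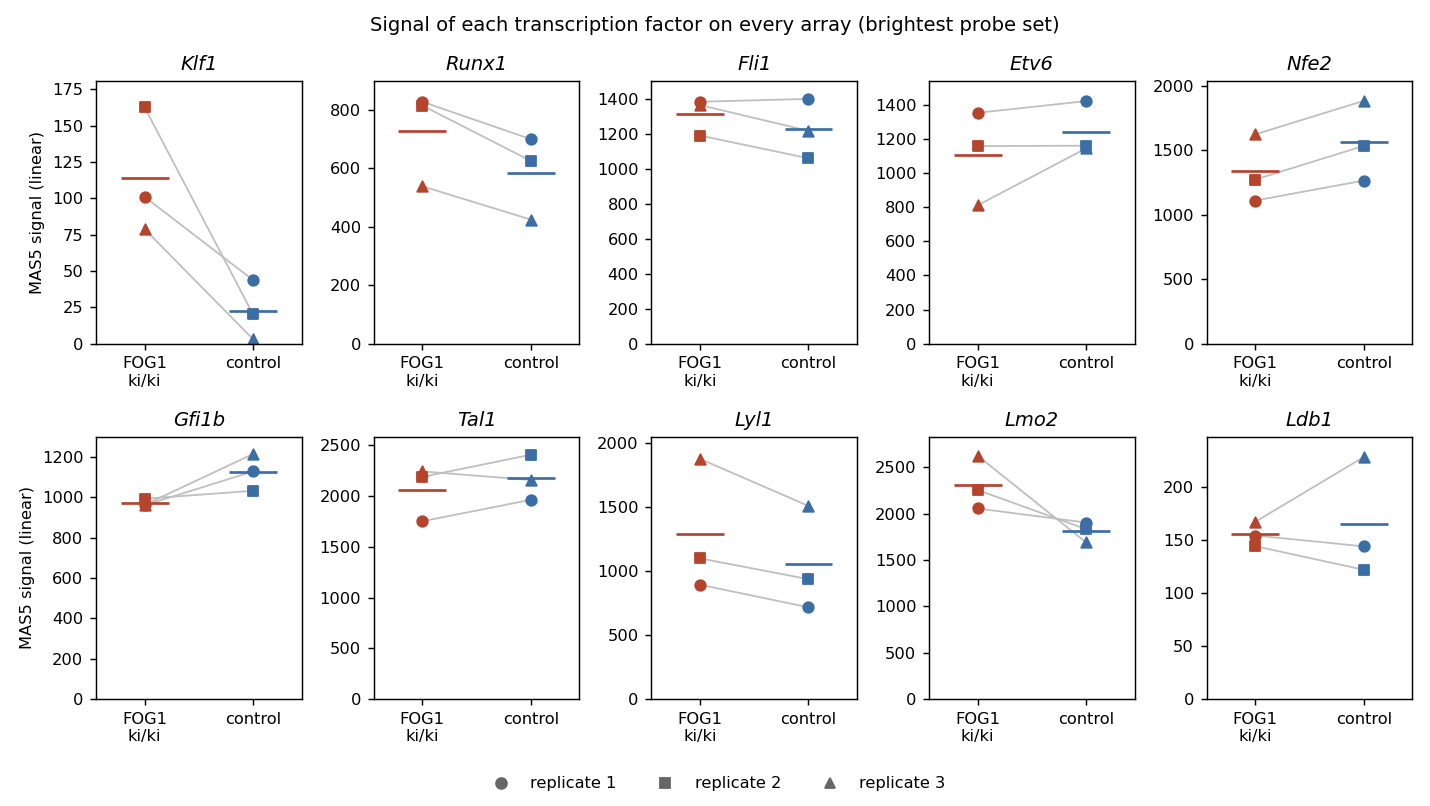
Signal of each of the 10 genes on every array, from the brightest probe set of the gene, on a linear axis that starts at 0. Symbols give the replicate number, grey lines join equal numbers, and horizontal bars are means of 3 arrays. Klf1, Lmo2 and Gfi1b are the genes whose groups do not overlap.

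Because FOG1 reaches DNA through GATA factors, the promoter windows of 3 members are printed from RefSeq (GRCm38.p6), each running from 250 bases before to 50 bases after a gene start. Klf1 is the member with the largest difference, Gfi1b a member whose groups also did not overlap, and Tal1 a member near its control level. Lower case is the window as 1 run, 5′ to 3′ on the strand of the gene, and capitals mark the letters GATAA, or TTATC where they lie on the opposite strand. Klf1 lies on the plus strand at chr8:84901732-84902031, Gfi1b on the minus strand at chr2:28621933-28622232 and Tal1 on the plus strand at chr4:115056176-115056475.
Klf1: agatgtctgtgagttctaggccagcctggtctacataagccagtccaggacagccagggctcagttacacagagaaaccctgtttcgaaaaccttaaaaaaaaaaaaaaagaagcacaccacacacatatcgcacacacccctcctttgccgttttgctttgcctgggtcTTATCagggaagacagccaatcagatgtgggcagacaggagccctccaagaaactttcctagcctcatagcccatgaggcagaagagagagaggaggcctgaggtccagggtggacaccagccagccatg
Gfi1b: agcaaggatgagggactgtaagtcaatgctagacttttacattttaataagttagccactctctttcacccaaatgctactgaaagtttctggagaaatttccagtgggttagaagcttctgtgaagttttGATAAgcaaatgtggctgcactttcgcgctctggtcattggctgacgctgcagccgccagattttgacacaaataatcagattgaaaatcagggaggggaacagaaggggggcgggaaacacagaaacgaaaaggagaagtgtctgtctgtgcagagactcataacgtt
Tal1: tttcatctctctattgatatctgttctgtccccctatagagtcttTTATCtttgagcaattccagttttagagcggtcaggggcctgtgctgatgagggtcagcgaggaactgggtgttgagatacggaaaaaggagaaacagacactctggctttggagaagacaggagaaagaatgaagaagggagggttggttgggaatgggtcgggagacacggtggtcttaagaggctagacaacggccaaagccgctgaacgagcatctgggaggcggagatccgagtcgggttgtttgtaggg
The capitals begin 80 bases before the start in Klf1, 119 in Gfi1b and 205 in Tal1. Windows were found for 7 of the 10 genes, 11 windows in all, and 4 of those 11 held GATAA on either strand, 1 each of Klf1, Gfi1b, Tal1 and Ldb1. All 3 printed windows are among those with the letters. Tal1 had a further window, at chr4:115057561-115057860, without them, and the one that holds them was printed. Of all 32851 promoter windows in the RefSeq table, 25.4% held these letters. Other motifs were searched on both strands too. CAGATG, an E-box sequence of the kind TAL1 binds, stood 59 bases before the start in the Klf1 window and past the start in the Tal1 window, and 17.2% of all windows held it. TGTGGT, which RUNX1 can bind, stood 133 bases before the start in the Klf1 window, and 16.8% of all windows held it. None of the 3 printed windows held CCGGAA, a core of ETS sites (14.9% of all windows), or CCACACCC, a KLF1 sequence (3.56%). The motif matches named did not overlap the capitals. A match of letters is a description of the window, and the arrays did not measure binding.

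Fli1 encodes an ETS factor that activates platelet glycoprotein genes. Its brighter probe set, 1433512_at, read 1383, 1190 and 1364 in FOG1 ki/ki, against 1399, 1060 and 1216 in control. The groups overlapped, and the FOG1 ki/ki array was the higher one at replicates 2 and 3 only. Its log2 difference was 0.10 (SE 0.15, 95% interval -0.25 to 0.46, limma adjusted p = 0.999). The second probe set, 1422024_at, read 263, 154 and 101 in FOG1 ki/ki, against 184, 155 and 172 in control, and its FOG1 ki/ki readings lay on both sides of control. Its log2 difference was -0.07 over the 3 pairs, and 0.23 without FOG1 ki/ki replicate 3. Side by side, the pair differences of Klf1 were 0.97, 2.31 and 2.31 and those of the brighter Fli1 probe set -0.02, 0.16 and 0.16.

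Etv6 encodes an ETS factor that represses transcription. Its brighter probe set, 1434880_at, read 1355, 1160 and 812 in FOG1 ki/ki, against 1424, 1162 and 1146 in control. FOG1 ki/ki was the lower array of each pair, but at replicate 2 the readings nearly coincided and only replicate 3 was clearly apart. This gave a log2 difference of -0.19 (SE 0.21, 95% interval -0.68 to 0.30, limma adjusted p = 0.999), and 0.02 without FOG1 ki/ki replicate 3. The dimmer probe set, 1423401_at, gave closely similar pair differences of -0.22, -0.18 and -0.20. It read 197, 147 and 217 in FOG1 ki/ki, against 232, 168 and 251 in control, so the groups overlapped while each pair was lower in FOG1 ki/ki.

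Runx1 encodes the DNA-binding partner of CBFB and is needed for megakaryocyte maturation. Its brightest probe set, 1422864_at, read 828, 815 and 539 in FOG1 ki/ki, against 700, 626 and 425 in control. Each FOG1 ki/ki array lay above the control array of its number, and both replicate 3 arrays lay below the other 4, so the groups overlapped. Over the groups the log2 difference was 0.31 (SE 0.26, 95% interval -0.29 to 0.92, limma adjusted p = 0.979, and 0.204 with the block). The pair differences were 0.24, 0.37 and 0.33, a spread much smaller than that between replicate numbers.

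The other Runx1 probe sets did not all follow the brightest one. Probe set 1440878_at read 595, 628 and 865 in FOG1 ki/ki, against 429, 416 and 683 in control, again higher in each pair (log2 difference 0.46, SE 0.25, and 0.326 as the limma adjusted p over all 45037 probe sets with the block). Here both replicate 3 arrays lay above the other 4, the opposite of the brightest probe set. Probe set 1422865_at read 574, 532 and 218 in FOG1 ki/ki, against 442, 306 and 219 in control, higher at replicates 1 and 2 and level at replicate 3. Probe set 1427650_a_at read 161, 180 and 430 in FOG1 ki/ki, against 169, 168 and 222 in control, and its log2 difference of 0.31 rested on replicate 3, being -0.11 without that FOG1 ki/ki array. Probe set 1452530_a_at was dim, with 75.0, 23.6 and 25.2 in FOG1 ki/ki, against 73.0, 20.1 and 22.8 in control. Probe set 1452531_at read 3.10 or less on every array and was the only one of the 17 left out by the filter on dim probe sets. The position of these probe sets in the Runx1 transcripts was not analysed here.

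**Figure D2:**
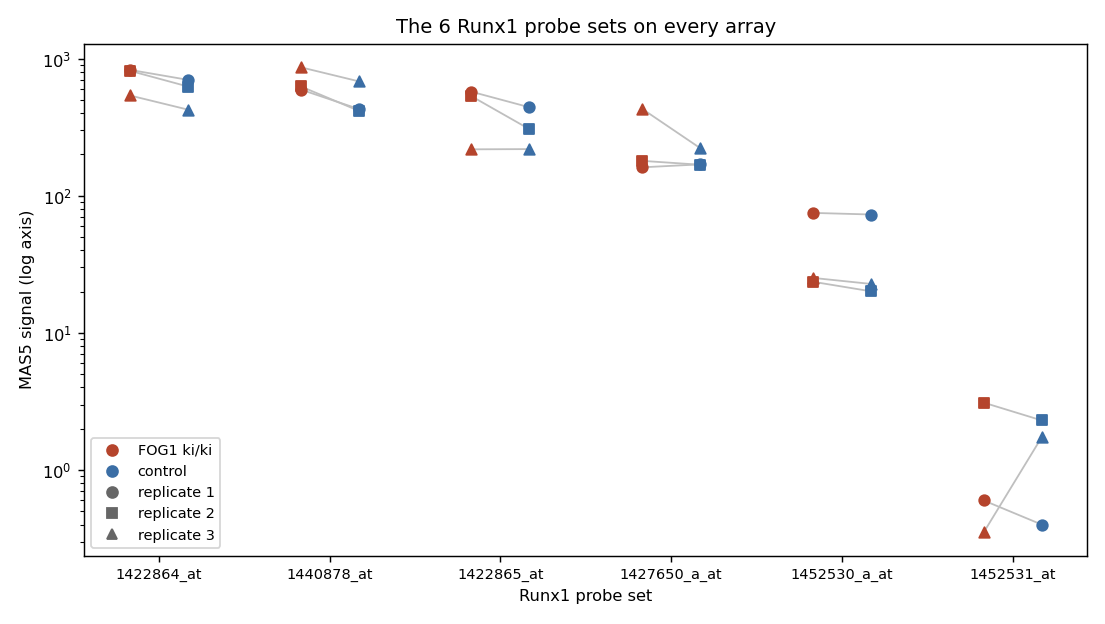
The 6 Runx1 probe sets on every array, with signal on a log axis. FOG1 ki/ki is left of control at each probe set, symbols give the replicate number and grey lines join equal numbers. The replicate 3 arrays are the lowest 2 for 1422864_at and 1422865_at and the highest 2 for 1440878_at and 1427650_a_at.

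Nfe2 encodes the p45 subunit of NF-E2, which pairs with small MAF proteins and is needed for platelet release in mice. It read 1109, 1272 and 1623 in FOG1 ki/ki, against 1264, 1533 and 1882 in control. FOG1 ki/ki was the lower array of each pair, by 0.19, 0.27 and 0.21 on the log2 scale, while the groups overlapped because the replicate numbers lay further apart than the groups. The log2 difference was -0.22 (SE 0.20, 95% interval -0.68 to 0.24, limma adjusted p = 0.99). With the block the SE was 0.08, the interval -0.43 to -0.02 and the limma adjusted p 0.244.

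Gfi1b encodes a zinc finger repressor that recruits the histone demethylase KDM1A and is needed for both lineages. It read 960, 992 and 962 in FOG1 ki/ki, against 1128, 1032 and 1214 in control. All FOG1 ki/ki arrays lay below all control arrays, and they spanned a narrow range of 0.05 on the log2 scale. Their log2 difference from control was -0.20 (SE 0.14, 95% interval -0.52 to 0.11, limma adjusted p = 0.945, and 0.336 with the block). Groups that do not overlap in either direction were found for 3 of the 10 members, Klf1, Lmo2 and Gfi1b, and for 11.3% of all genes (6.32% higher and 4.93% lower).

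Tal1 and Lyl1 encode related helix-loop-helix proteins that bind DNA together with E proteins. Tal1 read 1750, 2188 and 2241 in FOG1 ki/ki, against 1962, 2405 and 2157 in control, with a log2 difference of -0.08 (SE 0.14, 95% interval -0.41 to 0.24, limma adjusted p = 0.999). It was lower in FOG1 ki/ki at replicates 1 and 2 and higher at replicate 3. Lyl1 read 894, 1101 and 1879 in FOG1 ki/ki, against 718, 938 and 1511 in control. Each pair was higher in FOG1 ki/ki by nearly the same amount, 0.31, 0.23 and 0.31 on the log2 scale, although signals of 1 group differed by over 1 on that scale between replicate numbers. The log2 difference was 0.28 (SE 0.34, 95% interval -0.51 to 1.07, limma adjusted p = 0.999, and 0.188 with the block). Leaving out FOG1 ki/ki replicate 3, and so breaking that pair, turned it to -0.02.

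Lmo2 encodes the LIM-only adaptor that links TAL1 to the GATA factor. It read 2055, 2254 and 2623 in FOG1 ki/ki, against 1903, 1832 and 1689 in control. Every FOG1 ki/ki array lay above every control array, with the widest gap at replicate 3. Mean signal was 2311 ± 288 in FOG1 ki/ki and 1808 ± 109 in control (SD, n = 3 each). The log2 difference was 0.35 (SE 0.13, 95% interval 0.05 to 0.64, limma adjusted p = 0.618, and 0.206 with the block). Ldb1, the scaffold that LMO2 binds and that brings distant enhancers to promoters, read 154, 144 and 167 in FOG1 ki/ki, against 144, 122 and 228 in control. It was higher in FOG1 ki/ki at replicates 1 and 2 and lower at replicate 3, where the FOG1+/+ control read highest. Its log2 difference was -0.04 (SE 0.29, limma adjusted p = 0.999), and 0.20 without control replicate 3.

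**Figure D3:**
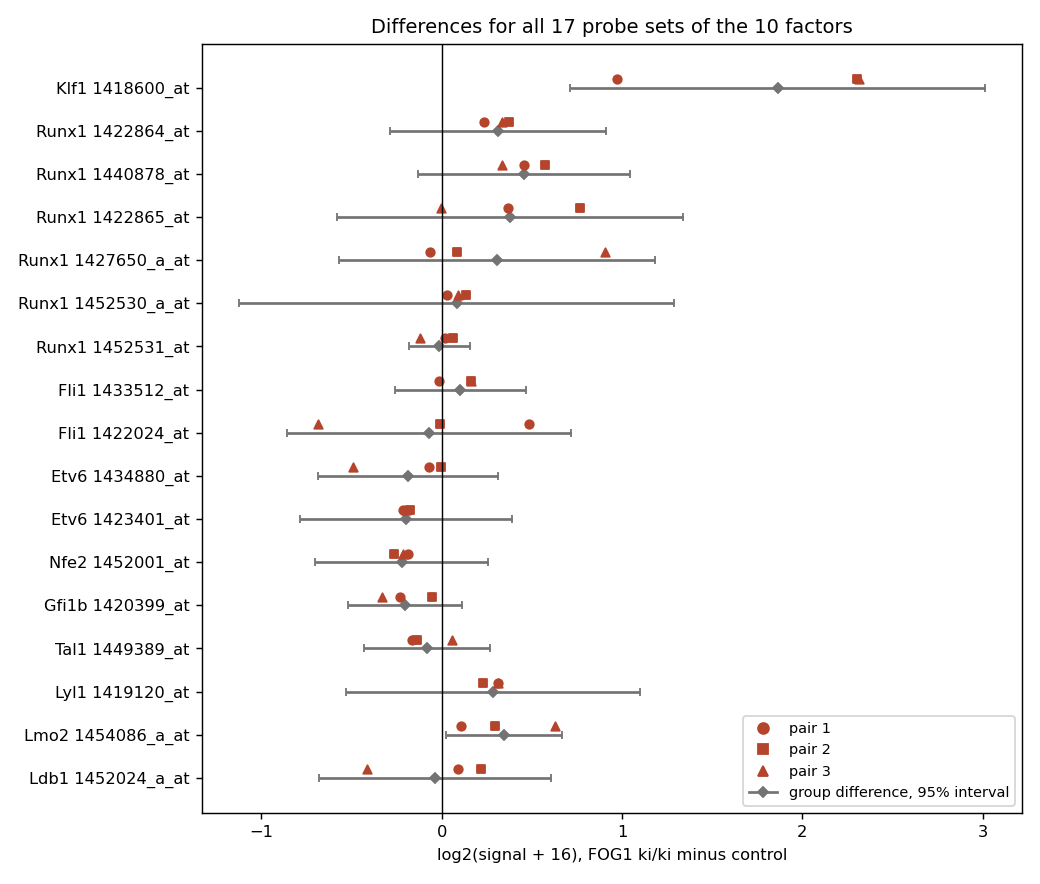
Differences of log2(signal + 16), FOG1 ki/ki minus control, for the 17 probe sets. Red symbols are the differences within equal replicate numbers, and grey diamonds with bars are the group differences with their 95% intervals from the limma fit over all 45037 probe sets that are not controls. Klf1 lies furthest from 0, and the red symbols of Nfe2 and Lyl1 lie close together.

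Of the 10 members, 7 differed in the same direction in all 3 pairs, against 44.2% of all genes. Klf1, Lmo2, Lyl1 and Runx1 were higher in FOG1 ki/ki in each pair (background 24.8%), and Nfe2, Gfi1b and Etv6 were lower in each pair (background 19.3%). In 8 of the 10 the range among control arrays was larger than the group difference, and Klf1 and Lmo2 were the exceptions. The range among FOG1 ki/ki arrays was also larger in 8 of the 10, with Klf1 and Gfi1b as the exceptions. For Lmo2 that range was 0.350, against a difference of 0.346. Both replicate 3 arrays lay above the other 4 for Nfe2, Lyl1 and Ldb1 and below them for Runx1 and Etv6, which is 5 of 10 members, against 36.0% of all genes tested. The ratio of 3′ to 5′ signal of the control genes, a sign of RNA quality, differed between replicate numbers and, at replicate 3, between the groups. For Gapdh it was 1.20, 1.63 and 2.38 in FOG1 ki/ki replicates 1 to 3 and 1.24, 1.74 and 1.86 in control replicates 1 to 3. For beta-actin it was 1.36, 2.06 and 2.76 in FOG1 ki/ki and 1.44, 2.11 and 1.93 in control. The FOG1 ki/ki replicate 3 array had the highest ratio of both genes, and the part of RNA quality in the members' differences was not tested.

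FOG1 itself and its main partner were near their control levels. Zfpm1 read 480, 868 and 1274 in FOG1 ki/ki, against 430, 862 and 1137 in control (log2 difference 0.11, limma adjusted p = 0.999). As the labels do not say what the allele changes, its level does not check them. Gata1, which encodes the GATA factor of maturing megakaryocytes and red cells, had a log2 difference of -0.13 (limma adjusted p = 0.999). Gata2, the GATA factor of progenitors and mast cells, read 1797, 2017 and 1767 in FOG1 ki/ki, against 911, 1048 and 481 in control, and the groups did not overlap. Its log2 difference of 1.25 did not pass (limma adjusted p = 0.242, and 0.0583 with the block).

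Of the complex partners of TAL1, LMO2 and LDB1, 15 of 16 were tested, 8 stood above control and 7 below, and 0 passed in either fit. Besides Gata2, the inhibitor of E proteins Id2 was at 0.78 (adjusted p = 0.73) and the E protein gene Tcf12 at 0.32 (adjusted p = 0.923). Of the RUNX1 partners and paralogs all 3 tested were above control and 0 passed, with Runx3 at 0.61, Runx1t1 at 0.39 and the obligate partner Cbfb at 0.22. Only Runx3 was higher in all 3 pairs. Runx1t1 was dim, with 11.4, 65.2 and 9.79 in FOG1 ki/ki, against 19.2, 14.0 and 8.36 in control. Cbfb had pair differences of -0.14, 0.17 and 0.65. Of the NF-E2 partners and relatives 3 of 7 were above control and 0 passed. Bach2, a BACH repressor that also pairs with small MAF proteins, read 14.3, 15.9 and 9.59 in FOG1 ki/ki, against 23.3, 84.1 and 73.3 in control (log2 difference -1.28, limma adjusted p = 0.45). The small MAF genes Mafg and Maff were at -0.26 and 0.29. Of the GFI1B cofactors and paralog 6 of 7 were above control and 0 passed, with Hdac2 at 0.16, Rcor2 at 0.25 and Hdac1 at 0.07. Of the other ETS factors 4 of 13 were above control and 0 passed, with Ets1 at 0.80, Etv3 at -0.19 and Elk3 at 0.28. Of the other KLF and SP factors 7 of 14 were above control and 0 passed, with Klf3 at -0.44, Klf5 at 0.73 and Klf11 at 0.41. The positive differences of Id2, Ets1, Elk3, Klf5 and Klf11 lay mostly at replicate 3, whose control is the only FOG1+/+ array. Their pair differences were 0.02, 0.45 and 1.88 for Id2 and 0.33, -0.07 and 2.16 for Ets1. They were -0.05, -0.13 and 1.03 for Elk3, -0.15, 0.46 and 1.89 for Klf5 and 0.08, 0.13 and 1.01 for Klf11.

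Genes taken as targets of KLF1 showed no common direction. Of 23 listed, 19 had a probe set of their own and 9 of these read under 16 on all 6 arrays, among them Slc4a1, Alas2 and Kel. Of the 9 that were tested, 5 were above and 4 below control, and 0 passed in either fit. The beta globin gene Hbb-b2 read 783, 1127 and 1077 in FOG1 ki/ki, against 1303, 1977 and 1382 in control, with no overlap (log2 difference -0.63, limma adjusted p = 0.543, and 0.0736 with the block). Icam4, a red cell adhesion protein gene, read 99.2, 69.8 and 59.9 in FOG1 ki/ki, against 47.7, 31.8 and 20.9 in control (log2 difference 0.91, limma adjusted p = 0.562, and 0.0898 with the block). Fech, the last enzyme of haem synthesis, was at -0.46 (limma adjusted p = 0.714).

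Genes taken as targets of RUNX1, NF-E2, FLI1 and GFI1B stood below control more often than above it. The lists do not separate genes that a factor activates from genes that it represses, and the activity of the factors was not tested. Of 8 RUNX1 targets tested 6 were below (median log2 difference -0.14), of 7 NF-E2 targets 6 (median -0.26), of 10 FLI1 targets 8 (median -0.20) and of 6 GFI1B targets 4 (median -0.31). Over all genes tested, 5057 of 11261 were below control and the median was 0.03. These lists share genes with the megakaryocyte markers described further on, 7 of the 10 FLI1 targets (Gp1bb, Gp5, Gp6, Gp9, Itga2b, Pf4 and Vwf), 1 of the NF-E2 targets (Tubb1) and 1 of the RUNX1 targets (Pf4), so the counts are not separate results. Of the genes not shared, 5 of 7 RUNX1 targets, 5 of 6 NF-E2 targets, 1 of 3 FLI1 targets and 4 of 6 GFI1B targets were below control. The RUNX1 targets include Nfe2, itself 1 of the 10 factors. With limma 0 of them passed without the block. With the block 2 FLI1 targets passed, against 0.835% of all genes. The collagen receptor gene Gp6 read 345, 264 and 600 in FOG1 ki/ki, against 702, 928 and 1500 in control, and it fell in that fit (log2 difference -1.35, blocked limma adjusted p = 0.0342, while its limma adjusted p without the block was 0.356). The angiopoietin receptor gene Tek read 912, 1176 and 1194 in FOG1 ki/ki, against 381, 370 and 204 in control, and it rose in that fit (log2 difference 1.77, blocked limma adjusted p = 0.0437, and 0.0913 without the block). The megakaryocyte tubulin Tubb1, taken as an NF-E2 target, read 1334, 1318 and 902 in FOG1 ki/ki, against 2000, 2910 and 2296 in control (log2 difference -1.01, limma adjusted p = 0.218, and 0.0583 with the block). Myl9, a myosin light chain gene taken as a RUNX1 target, was at -1.78 and the platelet lipoxygenase gene Alox12 at -1.94 (blocked limma adjusted p = 0.0583 and 0.0504). Other named genes were Selp at -0.21, Casp12 at -1.29, Prkch at -1.04, Bcl2l1 at -0.48, Meis1 at 0.50 and Socs3 at -0.56. Over the 11 lists, with members left out, 95 genes were tested. At an unadjusted p under 0.05 there were 13.7% of them, or 30.5% with the block, against 6.69% and 18.4% of all genes. The lists were chosen with earlier results of these data known, so these shares are a description and no test of the lists.

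**Figure D4:**
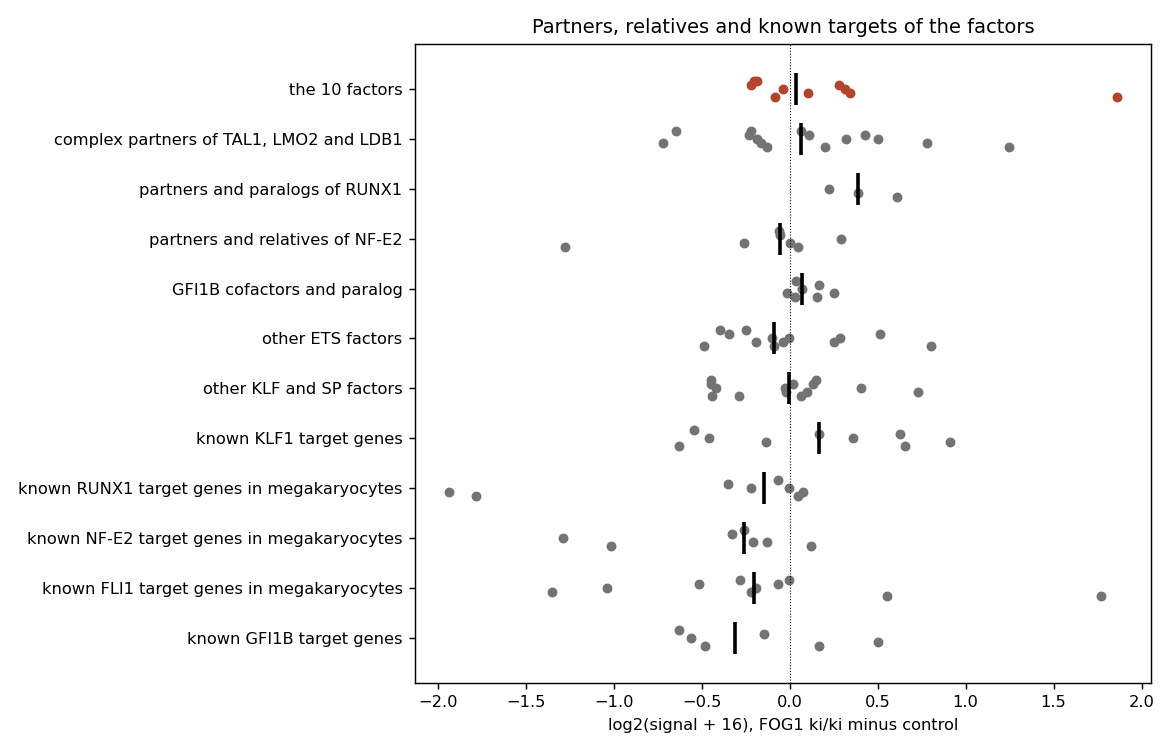
Log2 differences, FOG1 ki/ki minus control, of the 10 factors (red) and of the tested genes of the 11 lists (grey), 1 point per gene, with the list's median as a black bar. Klf1 is the red point at 1.86, and the medians of the RUNX1, NF-E2, FLI1 and GFI1B target lists lie below 0.

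The markers of megakaryocytes and of other cell types that a fetal liver culture can hold also differed between the arrays. In bulk RNA, fewer cells of a type and less RNA per cell cannot be told apart. Megakaryocyte markers were bright, and 12 of 12 tested stood below control, 8 of them genes of the target lists above, with a summed signal of 21189 to 27477 in FOG1 ki/ki and 24040 to 31550 in control. The sizes were uneven, with log2 differences from -0.003 for Pf4 to -1.35 for Gp6 and a median of -0.20. For Pf4, Ppbp, Itga2b, Itgb3 and Treml1 the pairs differed in sign. Mast cell and basophil markers stood above control in 10 of 10 cases, with a summed signal of 6579 to 6831 in FOG1 ki/ki and 282 to 3404 in control. The lowest sum was that of control replicate 3, the FOG1+/+ array. Of the erythroid markers 6 of 10 read under 16 on all arrays, namely Hba-a1, Slc4a1, Alas2, Ermap, Rhag and Kel. Their summed signal was 452 to 963 in FOG1 ki/ki and 281 to 857 in control, with overlap, and that overlap rested on 1 gene, Epor. Without Epor, which encodes the erythropoietin receptor, the sum was 276, 668 and 251 in FOG1 ki/ki, against 93.8, 96.2 and 56.1 in control. These sums did not overlap, but they leave out the 1 tested erythroid marker that was below control. Most of their FOG1 ki/ki signal was Tspan33, and the lack of overlap rested on that gene in turn. That gene read 181, 624 and 223 in FOG1 ki/ki, against 65.7, 58.9 and 36.9 in control. The globin gene Hbb-b2, outside this list, was below control (log2 difference -0.63). The sums with and without Epor are given as a description only. Of the 3 erythroid markers that were tested, 2 were above and 1 below control. The tetraspanin gene Tspan33 was at 2.18 (limma adjusted p = 0.226), higher in all 3 pairs. The carbonic anhydrase gene Car1 read 64, 12.4 and 4.12 in FOG1 ki/ki, against 6.40, 4.90 and 1.56 in control, also higher in all 3 pairs (log2 difference 0.83, limma adjusted p = 0.919). Epor read 176, 296 and 260 in FOG1 ki/ki, against 188, 451 and 801 in control, lower in all 3 pairs (log2 difference -0.75, limma adjusted p = 0.939). The part of erythroid cells in the Klf1 values was not tested.

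Macrophage markers stood below control in 12 of 12 cases, with 3991 to 11027 in FOG1 ki/ki and 8354 to 14338 in control. Fibroblast markers stood below in 9 of 9 cases, with 212 to 3467 in FOG1 ki/ki and 289 to 8257 in control. Neutrophil markers were below in 6 of 9 cases, with summed signals of 3918 to 16345 in FOG1 ki/ki and 2750 to 15900 in control. Endothelial markers were below in 5 of 8 cases, with 1579 to 1773 in FOG1 ki/ki and 1292 to 1645 in control. Hepatocyte markers were below in 2 of 3 cases, with 142 to 364 in FOG1 ki/ki and 312 to 353 in control, and Alb, Apoa1 and Ttr read under 16 on all arrays. No marker of any of these lists was at exactly 0, and 0 of the erythroid markers passed in either fit. Over the 8 marker lists 0 genes passed without the block, and with it Gp6, Tek, the mast cell gene Ms4a2 (log2 difference 2.77, limma adjusted p = 0.00901) and the endothelial and platelet adhesion gene Esam (log2 difference -1.89, limma adjusted p = 0.0342) did. Several of the 10 factors are also expressed in mast cells and progenitors, and the part of these cells in the members' values was not tested.

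**Figure D5:**
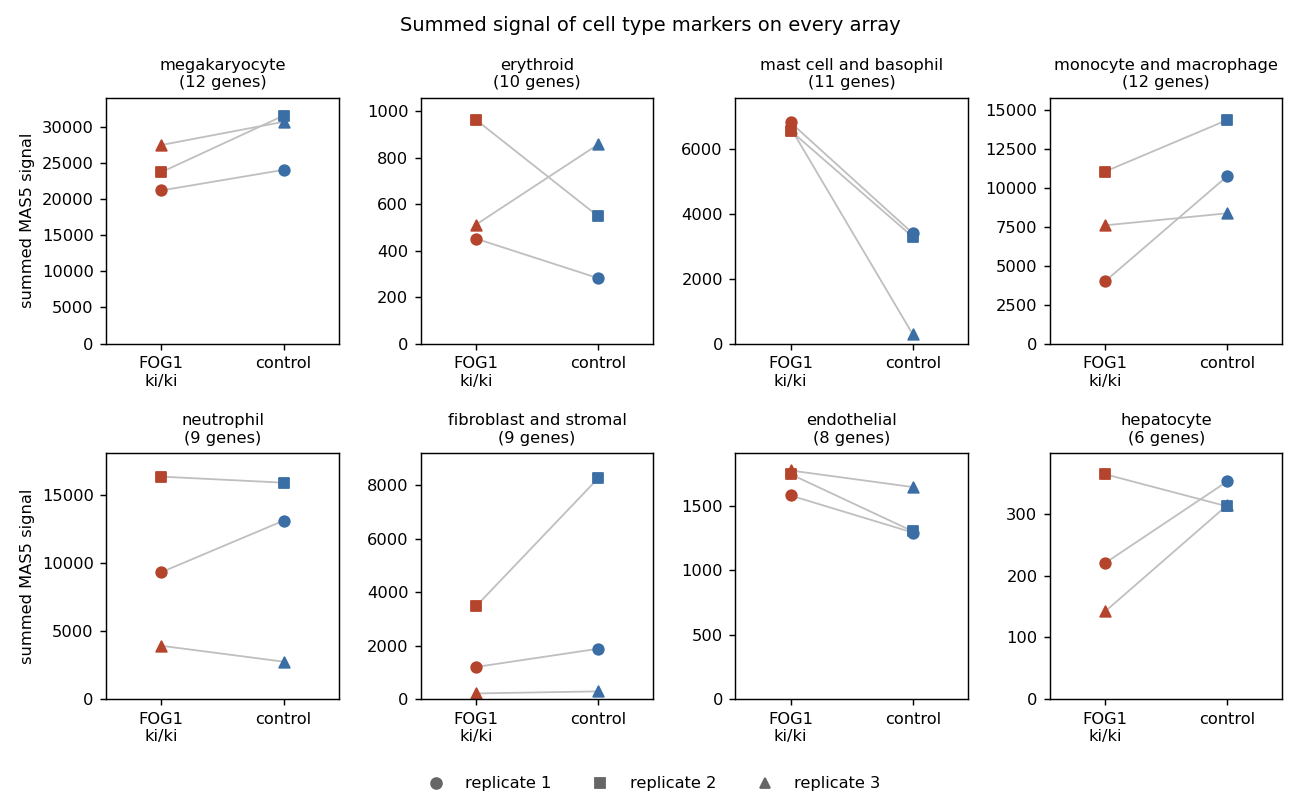
Summed signal of the markers of 8 cell types on every array, from the brightest probe set of each gene, with linear axes that start at 0. Symbols give the replicate number and grey lines join equal numbers. The mast cell sums of FOG1 ki/ki lie above all control sums, and the erythroid sums overlap, through Epor.

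Over the 6 arrays, the genes whose log2 signal followed Klf1 most closely were Ica1l (Pearson correlation 0.986), Sft2d1 (0.986) and Serpinb6b (0.981), out of 197 genes with a correlation over 0.9. Serpinb6b, a serine protease inhibitor gene, read 677, 878 and 710 in FOG1 ki/ki, against 300, 209 and 122 in control (log2 difference 1.84, limma adjusted p = 0.138, and 0.0444 with the block). Those closest to Lmo2 were Fhdc1 (0.993), Ccdc85b (0.992) and Elovl1 (0.99), with log2 differences of 1.72, 0.30 and 0.10. With 6 points that share groups and replicate numbers, high correlations are common among 11261 genes, and they are given as a description only.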

How the data were processed

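Affymetrix probe set intensities were used as deposited. They are linear values that the authors made with MAS5, according to the submitters' processing notes, which name no version. The mean of each column after trimming 2% at either end was 150, so a change in total RNA per cell cannot be seen. Median signals ranged from 5.93 to 12.3. The number of arrays limits the precision. RNA was amplified and labelled with NuGEN kits, per the labels' protocols.

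Signals were analysed on the log2(signal + 16) scale, where changes of dim genes come out too small. After removal of the 64 control probe sets and the dimmer 50%, the brightest probe set naming a gene alone stood for that gene. Of the 17 member probe sets 16 passed that filter. The 11261 genes were tested by limma 3.58.1 in R 4.3.3 (trended eBayes, Benjamini-Hochberg, threshold 0.05), and a further fit took all 45037 probe sets that are not controls. Alternatives were other pseudocounts, filters, scalings and arrays left out. Of 34958 probe sets with 1 symbol, 34754 matched the RefSeq table, used for names. The genome build behind the array annotation is not given in the sources used here. Same-numbered arrays deviated together from their group means (correlations 0.482, 0.689 and 0.674), which was read as pairing, so blocked values are given. The labels do not say what the numbers share. The fits were tried on simulated data, drawn as normal noise around the pair effects and variances of the blocked fit. Such data cannot show whether the calls hold in these arrays. Members, gene lists, markers and the rule for named genes were chosen with earlier results of these data known. That rule took all members, Zfpm1, Gata1, Gata2, the 3 smallest p of each list and the 3 closest patterns for the 2 members with the smallest p. Target and marker genes named for reading under 16, or for standing in several lists, were chosen after their values were seen. Values were summarised and plotted in Python 3.11.15, using matplotlib 3.10.9, pandas 2.3.3, scipy 1.17.1 and numpy 2.4.6.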

Additional observations from a re-analysis of the deposited data

How the results depend on the processing

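The count of members called was 0 of 10 in the gene fit under every alternative run but 1. It was 1, Klf1, in the replicate block fit that left out the pair numbered 1, which was chosen after seeing the data. In the fit over all probe sets 0 of 17 were called except with median centring, where it was 1, Klf1 (limma adjusted p = 0.0379), while the calls over all 45037 probe sets went to 163. The cause was not tested. A filter that kept the brightest 25% of probe sets left out Klf1. Over all genes, 11 were higher and 6 lower. These counts were 1 and 2 with that stricter filter, 0 and 1 with no filter and 5 and 3 with a pseudocount of 1, and 3 were lower with the mean of a gene's probe sets. With the replicate block they were 47 and 47. The block gave 50 and 51 at a pseudocount of 1, 39 and 36 at a pseudocount of 64, and 44 and 53 after quantile normalization. In blocked fits that left out the pair numbered 1, 2 or 3 they were 84 and 123, 64 and 64, and 118 and 241. Leaving out 1 array gave 0 to 1 higher and 1 to 1 lower, and leaving out a pair without the block gave 0 and 0. With all 6 arrays the block changed no call of a member. Without the pair numbered 1 it did, since Klf1, at 2.31 in both fits, had a limma adjusted p of 0.0197 with the block and 0.601 without it. The median over the members was 0.113 without the pair numbered 3, blocked or not.

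The signs that turned were of differences that had not passed. Without the pair numbered 3, blocked or not, Ldb1 was at 0.153, Fli1 probe set 1422024_at at 0.237 and Runx1 probe set 1452531_at at 0.0396. The last, at background, was at 0.0095 with median centring. Leaving out 1 array moved Ldb1 between -0.21 and 0.20, Tal1 between -0.15 and 0.031, Lyl1 between -0.021 and 0.57 and Etv6 between -0.35 and 0.018. It moved Fli1 probe set 1422024_at between -0.40 and 0.23. The Runx1 probe sets moved between -0.11 and 0.55 (1427650_a_at), between -0.31 and 0.50 (1452530_a_at) and between -0.084 and 0.028 (1452531_at). The number of members with 1 sign in all 3 pairs was 7 under each pseudocount and scaling tried. Control signal near background limits what the size of the Klf1 difference can show.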
